A study of Mus musculus with 32 samples.

Results

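Cell proliferation genes were examined as a set of 35 named genes that act in DNA replication and mitosis. Every array probe whose gene symbol in the probe annotation was 1 of those names was taken, which gave 57 probes of 32 genes, out of 16593 gene symbols on the array. No probe carried the symbol Mki67, Ccnb1 or Aurkb in the annotation used here, so these 3 genes have no values. The samples were whole lungs and tracheas of male C57BL/6 mice aged 2 months, either Car6-/- (6 lungs, 6 tracheas) or wild type (8 lungs, 8 tracheas). Car6 is the gene of carbonic anhydrase VI, an enzyme secreted in saliva that hydrates carbon dioxide. The labels do not describe how the Car6 allele was made, give no treatment for either genotype, and do not say whether a lung and a trachea of 1 number came from 1 animal or whether every sample of a group came from its own animal. The p-values below therefore measure the spread between these samples.

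A cell that prepares to divide first loads the Mcm helicase at replication origins, then copies its DNA with nucleotides made by enzymes such as thymidylate synthase and ribonucleotide reductase, and finally separates the chromosomes under control of Cdk1, the Aurora and Polo kinases and the anaphase-promoting complex. The genes of the first steps are controlled largely by E2F factors, and those of mitosis by the DREAM and MMB complexes together with FoxM1 and the CCAAT-binding factor NF-Y. Adult lung and trachea renew slowly, so a whole tissue holds few dividing cells, whereas developing T cells in the thymus divide fast.

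Promoters were matched in the RefSeq table for 28 of the 32 genes on the array (build GRCm38.p6, 250 bases before to 50 bases after the start). The E2F letters TTTCCCGC or TTTGGCGC, on either strand, were found in 5 of these 28 genes (17.9%), against 1.8% of the 27025 genes in the table. All 5 genes act in origin licensing (Cdc6, Mcm3, Mcm5, Mcm6 and Mcm7). The letters TTTGAA, the core of the cell cycle genes homology region (CHR), were found in 13 of 28 (46.4%, against 20.2% of all genes), among them 5 of the 7 kinase, checkpoint and centromere genes, 3 of the 3 mitotic exit genes and 0 of the 5 genes of nucleotide supply and the replication fork. The letters CCAAT were found in 22 of 28 (78.6%, against 41.1%). No searched word contains another, and a match is a description of the sequence and not a binding site. The promoters below belong to the 3 genes with the smallest p between genotypes in lung and to Cenpa, the detected kinase, checkpoint, cyclin or exit gene with the highest mean signal, so that licensing and mitotic promoters can be compared. They lie at chr6:88898731-88899030 on the minus strand (Mcm2), chr11:98907901-98908200 on the plus strand (Cdc6), chr8:75109259-75109558 on the plus strand (Mcm5) and chr5:30666636-30666935 on the plus strand (Cenpa), each 300 bases around the start of its gene, written 5′ to 3′ along the gene with the matched letters of either strand in capitals.
Mcm2: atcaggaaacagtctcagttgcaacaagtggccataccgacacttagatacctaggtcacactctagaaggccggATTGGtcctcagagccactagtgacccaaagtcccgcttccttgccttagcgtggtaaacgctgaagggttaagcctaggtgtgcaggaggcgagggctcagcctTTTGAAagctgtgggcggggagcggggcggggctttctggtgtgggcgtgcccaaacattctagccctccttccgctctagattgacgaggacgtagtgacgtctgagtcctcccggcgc
Cdc6: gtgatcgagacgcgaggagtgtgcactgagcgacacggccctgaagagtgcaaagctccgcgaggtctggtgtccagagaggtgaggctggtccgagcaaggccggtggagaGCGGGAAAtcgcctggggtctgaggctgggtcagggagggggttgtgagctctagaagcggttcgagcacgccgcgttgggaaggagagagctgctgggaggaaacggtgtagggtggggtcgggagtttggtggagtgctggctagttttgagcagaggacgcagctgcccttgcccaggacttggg
Mcm5: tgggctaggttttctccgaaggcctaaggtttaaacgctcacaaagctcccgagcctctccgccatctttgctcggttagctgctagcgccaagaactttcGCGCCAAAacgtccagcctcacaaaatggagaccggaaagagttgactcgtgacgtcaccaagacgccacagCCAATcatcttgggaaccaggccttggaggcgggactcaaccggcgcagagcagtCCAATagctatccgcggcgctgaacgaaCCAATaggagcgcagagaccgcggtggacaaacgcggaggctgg
Cenpa: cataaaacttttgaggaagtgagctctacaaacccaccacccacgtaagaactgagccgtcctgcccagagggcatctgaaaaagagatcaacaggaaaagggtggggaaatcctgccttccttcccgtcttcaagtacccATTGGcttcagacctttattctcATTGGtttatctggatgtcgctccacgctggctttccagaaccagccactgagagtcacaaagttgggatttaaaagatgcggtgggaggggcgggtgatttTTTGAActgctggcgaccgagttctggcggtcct
Cdc6 and Mcm5 held 1 E2F match each, on the strand opposite to the gene, at positions -138 and -149 from the start. Mcm2 and Cenpa held CHR and CCAAT letters and no E2F match, and Mcm5 held 3 CCAAT copies.

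Each array measured 25697 probes, of which 11735 to 13139 were detected (detection p under 0.01). The single Car6 probe was detected in 0 of 28 samples, so the knockout could not be checked by it. All 7 alveolar type 2 marker genes were detected in lung, and all 7 basal epithelium and all 7 cartilage marker genes in trachea. Some samples stood apart. Car6-/- tracheas 1 and 2 had a mean log2 level of alveolar type 2 genes of 10.22 and 10.68, where the other tracheas lay between 6.54 and 7.64. The B cell level was 8.27, 6.60 and 5.93 in Car6-/- tracheas 2, 1 and 5 and 4.89 to 5.14 in wild-type tracheas. Wild-type tracheas 1 and 5 had basal epithelium levels of 7.93 and 8.59 where the other wild-type tracheas had 10.88 to 11.29, and Car6-/- tracheas 1, 2, 6 and 5 had 6.28, 7.05, 8.35 and 9.11. The thyroid level was 4.52 to 4.66 in Car6-/- tracheas 1, 2 and 7 against 8.03 to 9.29 in wild type, and the skeletal muscle level was 6.72 in Car6-/- trachea 1 against 11.30 to 12.44. In lung, Car6-/- lung 5 and wild-type lung 6 had skeletal muscle levels of 8.68 and 6.94. All values below are log2 intensities after background correction and quantile normalization, and all changes are log2 differences with their standard error. In bulk samples, fewer cells of a type and less RNA per cell cannot be told apart.

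Detection of the proliferation genes differed from gene to gene in lung and from sample to sample in trachea. Of the 32 genes, 12 were detected in all 14 lungs, among them Mcm4 and Cenpa with wild-type lung means of 9.11 and 8.43. Of all 32, 27 were detected in at least 1 sample, 9 in all 28 samples, and 8 in no lung. The 9 genes detected throughout were Mcm4, Mcm5, Mcm6, Tyms, Rrm1, Birc5, Cdc20, Cenpa and Cdca3. The 5 genes never detected were Ccna2, the S-phase cyclin, Ccnb2, a mitotic cyclin, Bub1, a spindle checkpoint kinase, Kif20a, a kinesin of the central spindle, and Cks2, a Cdk1-binding subunit. Ube2c, the ubiquitin-conjugating enzyme of the anaphase-promoting complex, was detected in 1 sample, a Car6-/- trachea. A wild-type lung had 18 to 21 of the 32 genes detected (median 18) and a Car6-/- lung 15 to 19 (median 17). A wild-type trachea had 13 to 26 (median 24) and a Car6-/- trachea 14 to 27 (median 23.5), so that the tracheas with the fewest were below every wild-type lung.

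**Figure D1:**
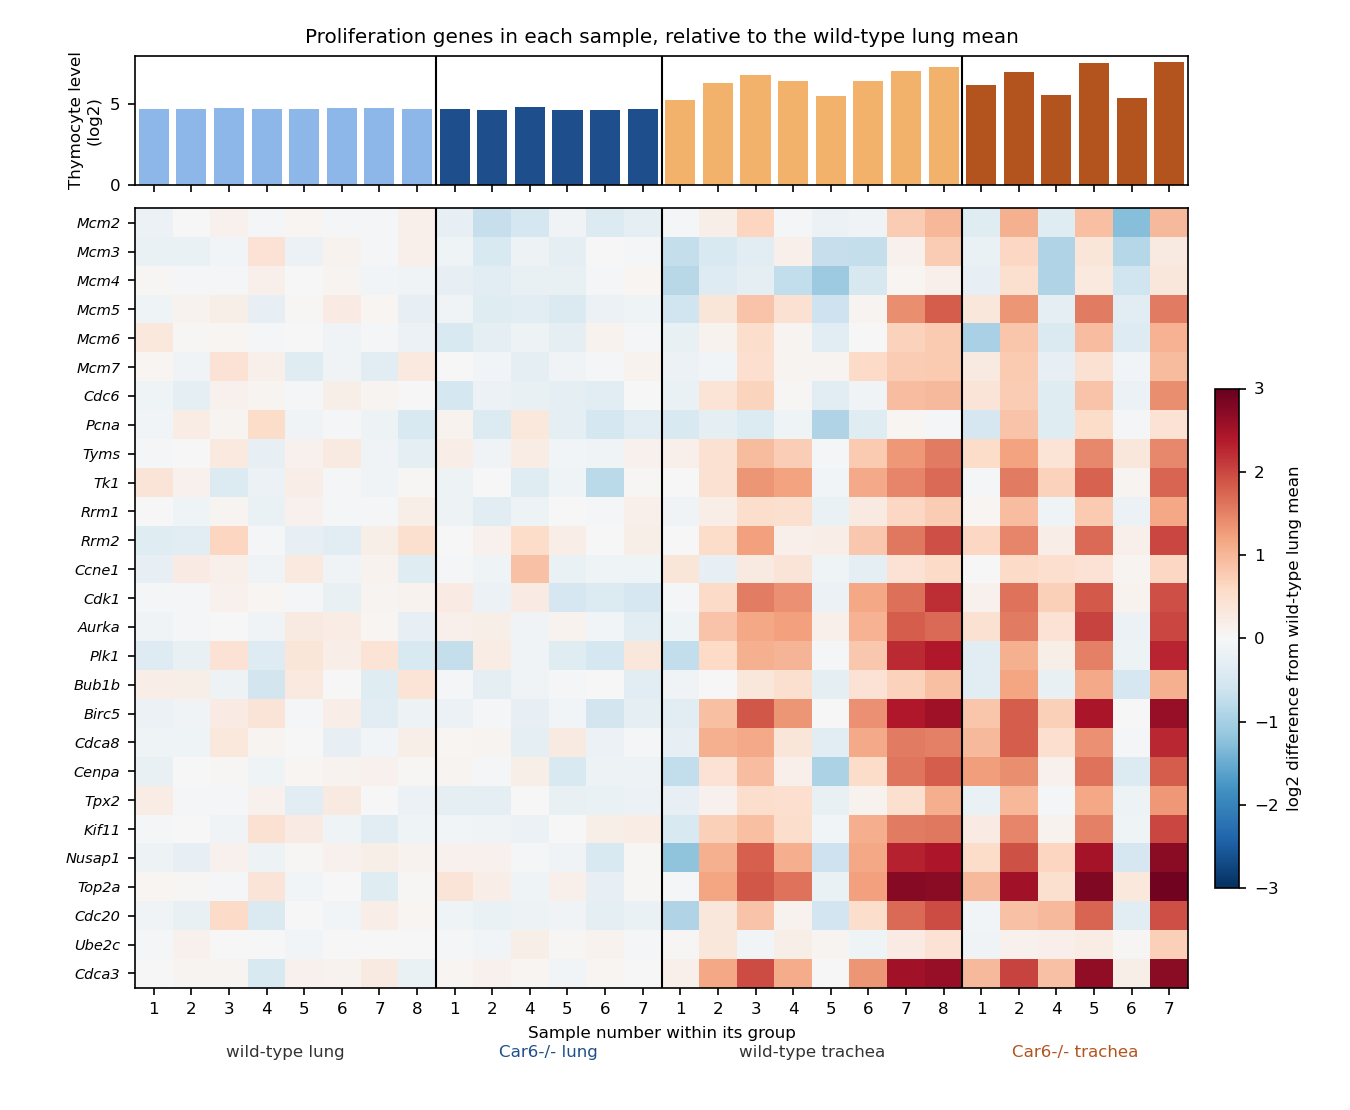
Colour shows, for the 27 proliferation genes detected in at least 1 sample (rows), the log2 difference of each sample (columns) from the wild-type lung mean, and the bars above show the mean log2 level of 7 thymocyte marker genes. The 14 lungs are pale throughout, while the tracheas differ among themselves, with the darkest columns in Car6-/- tracheas 2, 5 and 7 and wild-type tracheas 7 and 8, which also have the tallest bars.

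In wild-type mice, most mitotic and nucleotide supply genes were higher in trachea than in lung, and Mcm4 was lower. Of 23 genes tested, 13 were higher and 1 was lower at a limma adjusted p under 0.05, where 29.8% of the 10019 genes tested were higher and 38.5% were lower. The median change of the 23 genes was 0.73, and that of all genes tested was -0.09. Some genes entered the test only because they were detected in trachea. Among the called genes, Cdca8 was detected in 0 wild-type lungs, Kif11 and Rrm2 in 2, Top2a and Plk1 in 4 and Aurka in 5. The filter needed 6 samples, so the adjusted p-values of these genes are no support and the counts are a description. Among the 9 genes detected in all samples, for which the filter had no part, 4 were higher (Cdca3, Tyms, Birc5 and Rrm1) and 1 was lower (Mcm4). The share over all genes detected in all samples was not taken, so these counts too are a description.

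Top2a, the topoisomerase that untangles replicated chromosomes, ranged in wild-type lung from 4.67 to 5.40 (median 5.03) and in wild-type trachea from 4.83 to 7.75 (median 6.45). In 6 of the 8 tracheas it lay above every lung, and in tracheas 1 and 5 (4.97 and 4.83) it lay within the lung range. The change was 1.39 ± 0.36 (limma adjusted p = 0.00227). Top2a was detected in 4 of the 8 lungs and 6 of the 8 tracheas, so it entered the test through trachea and that p is no support. Cdca3, an F-box-associated protein known from frog eggs as a trigger of mitotic entry, ranged from 5.53 to 6.25 (median 6.07) in lung and from 5.98 to 8.60 (median 7.24) in trachea, a change of 1.35 ± 0.32 (adjusted p = 0.00116). Here too 6 of the 8 tracheas lay above every lung. Birc5, or survivin, a subunit of the chromosomal passenger complex, ranged from 5.38 to 6.09 (median 5.64) in lung and from 5.38 to 8.27 (median 7.06) in trachea, a change of 1.26 ± 0.34 (adjusted p = 0.00356). Its other detected probes changed in the same direction, by 1.01 ± 0.32 and 1.58 ± 0.40.

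Cdk1, the kinase that drives entry into mitosis, ranged from 4.97 to 5.31 (median 5.19) in lung and from 5.00 to 7.39 (median 6.45) in trachea, a change of 1.03 ± 0.27 (adjusted p = 0.00296). Nusap1, a spindle microtubule-binding protein, had the widest spread, from 4.74 to 8.38 (median 7.08) in trachea against 5.69 to 6.13 (median 6.01) in lung. Its change was 1.00 ± 0.42 (adjusted p = 0.0423), with 6 tracheas above and 2 tracheas below every lung, and the call was lost without the detection filter (adjusted p = 0.0754) and when any of 14 of the 16 samples was left out singly (adjusted p up to 0.087). Mcm4, a subunit of the replicative helicase, was the only called gene with the opposite direction. It ranged from 9.00 to 9.26 (median 9.10) in lung and from 8.02 to 9.25 (median 8.67) in trachea, a change of -0.45 ± 0.15 (adjusted p = 0.0118), and 6 of the 8 tracheas lay below every lung.

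By role, 4 of 5 tested genes of nucleotide supply and the replication fork were higher (Tyms, Tk1, Rrm1 and Rrm2), and Pcna, the sliding clamp of the replication fork, was not called (-0.32 ± 0.14, adjusted p = 0.0565). Tyms, thymidylate synthase, changed by 0.74 ± 0.19 (adjusted p = 0.00247) and Tk1, thymidine kinase, by 0.90 ± 0.23 (adjusted p = 0.00249). Of 6 kinase, checkpoint and centromere genes tested, 4 were higher. Aurka, the centrosomal Aurora kinase, changed by 0.97 ± 0.23 (adjusted p = 0.00107), and Plk1, Polo-like kinase, by 0.92 ± 0.36 (adjusted p = 0.0304). Cdca8, or borealin, another passenger complex subunit, is 1 of these 4. It entered the test only through its detection in 6 of 8 tracheas, so its limma adjusted p (0.011) is no support. It was at least 1.4-fold higher in trachea, a lower bound because no wild-type lung detected it (measured means 4.72 in lung and 5.49 in trachea). In tracheas 1 and 5 (4.47 and 4.38) it lay below every wild-type lung. All 3 tested spindle and chromosome structure genes were higher (Top2a, Nusap1 and Kif11, the motor that separates spindle poles). Of these, Top2a and Kif11 entered the test through their detection in trachea. Of the 6 origin licensing genes tested, 0 were higher and 1 was lower, with Mcm5 at 0.47 ± 0.28 (adjusted p = 0.153) and Mcm2 at 0.27 ± 0.16 (adjusted p = 0.131). That count depends on the probe for Mcm6. The probe that stands for it was at 0.21 ± 0.15 (adjusted p = 0.212). With every probe tested as its own feature, another Mcm6 probe was higher in trachea (0.43 ± 0.13, limma adjusted p = 0.0094). The tissues overlapped in each of the 23 genes, and the share of all genes tested that did so was not counted.

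**Figure D2:**
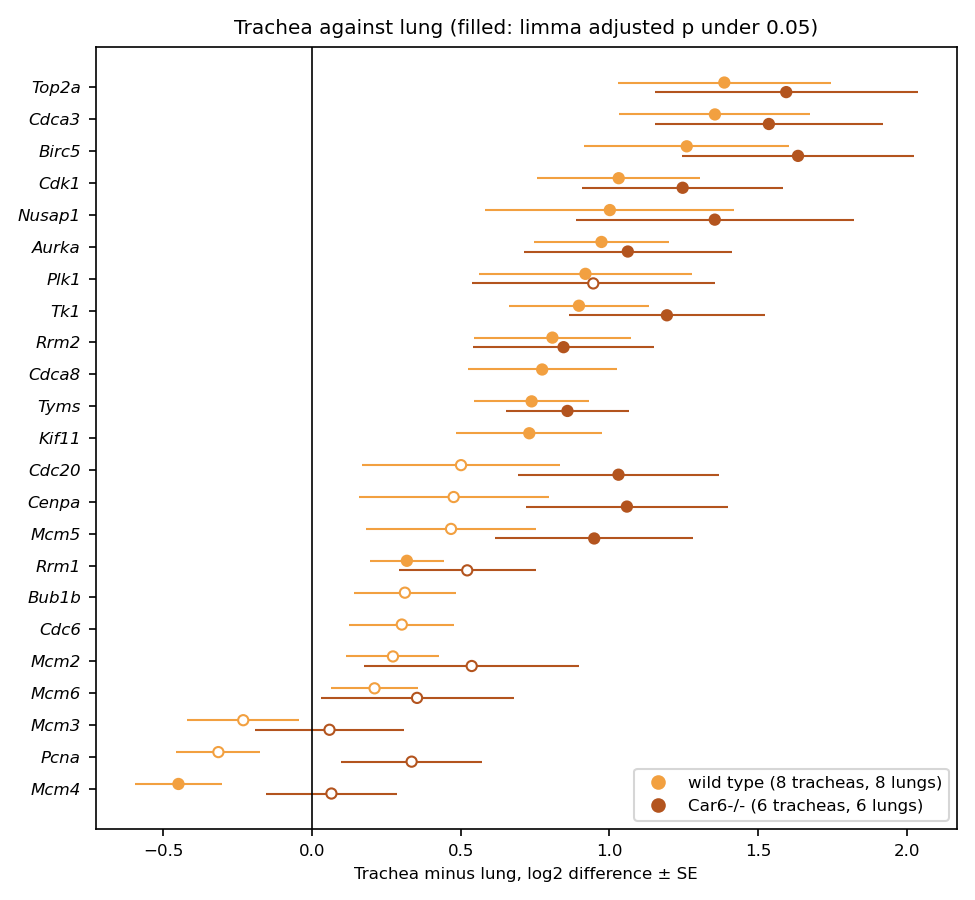
Points show the log2 difference of trachea minus lung, with standard error, for each proliferation gene tested in wild-type (light) and Car6-/- (dark) mice, and filled points passed a limma adjusted p under 0.05. Top2a, Cdca3 and Birc5 lie between 1.26 and 1.63, and Mcm4 in wild type is the single filled point left of 0.

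In Car6-/- mice, which share no sample with the wild-type comparison, 19 genes were tested, 12 were higher in trachea and 0 were lower, where 20.4% of the 9500 genes tested were higher and 28.1% were lower. The median change of the 19 genes was 0.95, against -0.07 for all genes tested. Among the 9 genes detected in all samples, 6 were higher (Birc5, Tyms, Cdca3, Cenpa, Cdc20 and Mcm5), again with no share over all such genes to set beside them. Birc5 ranged from 5.17 to 5.66 (median 5.50) in Car6-/- lung and from 5.69 to 8.33 (median 7.04) in Car6-/- trachea, a change of 1.63 ± 0.39 (adjusted p = 0.00372). Its 6 tracheas all lay above the 6 lungs, as did those of Cdca3 and Tyms. How often the tissues separated in this way over all genes tested was not counted, so this is a description of these genes only. Top2a ranged from 4.78 to 5.40 (median 5.11) in lung and from 5.33 to 7.91 (median 6.78) in trachea (1.59 ± 0.44, adjusted p = 0.00925). It was detected in 4 of the 6 lungs and in all 6 tracheas, so it entered the test through trachea and this p is no support.

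Cdca3 ranged from 5.92 to 6.13 (median 6.05) in Car6-/- lung and from 6.16 to 8.71 (median 7.50) in Car6-/- trachea (1.54 ± 0.38, adjusted p = 0.00489). Nusap1 ranged from 5.50 to 6.08 (median 5.94) in lung and from 5.44 to 8.66 (median 7.23) in trachea (1.35 ± 0.47, adjusted p = 0.0288), and leaving out any of 5 single samples ended that call (adjusted p up to 0.0625). Cdk1 ranged from 4.67 to 5.42 (median 4.89) in lung and from 5.29 to 7.12 (median 6.35) in trachea (1.25 ± 0.34, adjusted p = 0.00795). It was detected in 3 of the 6 lungs and in all 6 tracheas, so the same limit holds for its p as for Top2a. For Nusap1, 5 of the 6 tracheas lay above every lung and trachea 6 lay below. Cenpa, the histone variant that marks centromeres, changed by 1.06 ± 0.34 (adjusted p = 0.0203) and Cdc20, an activator of the anaphase-promoting complex, by 1.03 ± 0.34 (adjusted p = 0.0223). By the probe that stands for each gene, neither was called in wild type, where the changes were 0.48 ± 0.32 and 0.50 ± 0.33. With every probe tested as its own feature, another Cdc20 probe did pass in wild type (0.70 ± 0.28, limma adjusted p = 0.0343). A further Cdc20 probe did not (0.44 ± 0.27, adjusted p = 0.155). The difference between the genotypes did not pass the test either (Cenpa 0.58 ± 0.50, limma adjusted p = 0.604, and Cdc20 0.53 ± 0.51, adjusted p = 0.653).

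The mean level of thymocyte marker genes was also higher in trachea than in lung, and it varied between tracheas. The thymocyte list held Rag1 and Rag2, the recombinase of antigen receptor genes, Dntt, the polymerase that adds bases at their joints, Ptcra, the surrogate receptor chain of immature T cells, and Cd1d1, Themis and Arpp21. In lung, 2 of these 7 genes were detected in any sample (Cd1d1 in all 14 lungs, Ptcra in 1), and in trachea 6 of 7, with Arpp21 in 14, Rag1 in 13, Dntt in 10, Themis in 9 and Ptcra in 5 of 14 tracheas, while Rag2 was detected in none. Their mean log2 level was 4.63 to 4.83 in Car6-/- lung and 4.70 to 4.81 in wild-type lung. In wild-type trachea it was 5.27 and 5.52 in samples 1 and 5, between 6.34 and 6.80 in samples 2, 3, 4 and 6, and 7.05 and 7.32 in samples 7 and 8. In Car6-/- trachea it was 5.38 to 6.18 in samples 1, 4 and 6 and 7.01 to 7.64 in samples 2, 5 and 7, so that the genotypes overlapped over almost the whole range. The T cell level split the tracheas in the same way. In wild type it was 5.98 and 6.45 in samples 1 and 5, 7.87 to 8.43 in samples 2, 3, 4 and 6, and 8.91 and 9.08 in samples 7 and 8. In Car6-/- trachea it was 6.31 to 7.85 in samples 1, 4 and 6 and 8.99 to 9.42 in samples 2, 5 and 7. Because both levels split the tracheas alike, their relations with the proliferation genes cannot be told apart here. The B cell level spanned 4.89 to 5.14 in wild-type and 5.08 to 8.27 in Car6-/- trachea. The 2 wild-type tracheas of lowest thymocyte level, 1 and 5, also had the lowest basal epithelium levels of their group (7.93 and 8.59). The part of the thymocyte, T cell or basal epithelium list in the difference between tissues was not tested.

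Within the tracheas of each genotype, proliferation genes were higher in samples of higher thymocyte level. Among 8 wild-type tracheas, Pearson's r with that level was above 0 for 26 of 26 genes tested, with a median of 0.952 and a range from 0.376 (Ccne1) to 0.994 (Nusap1), where the median over all 9736 genes tested was -0.20. Of the 26 genes, 21 had an r above 0 at an exact permutation p under 0.05 after adjustment over all 9736 genes, and 4.96% of all genes did so. By Spearman's rho, 11 of the 26 passed with a rho above 0, and 1.9% of all genes did so. An r over 0.9 was found in 19 of the 26 genes and in 4.8% of all genes. The 8 samples fall into 2 low and 6 higher tracheas. Without tracheas 1 and 5, the 2 farthest from the median, the median r over the 26 genes was 0.903 (0.583 to 0.986), and all 26 stayed above 0.

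For Nusap1 r was 0.994 and rho 0.976 (exact two-sided permutation p = 4.96e-05 and 0.000397, adjusted over all genes 0.0137 and 0.0282), and r was 0.986 without the 2 farthest samples. For Top2a r was 0.978 and rho 0.952 (exact permutation p = 0.000322 and 0.00114, adjusted 0.0183 and 0.0429), and r was 0.953 without them. Top2a was 4.83 and 4.97 in the 2 tracheas of lowest thymocyte level and 7.75 and 7.72 in the 2 of highest. The genes with the lowest r were Ccne1, the G1/S cyclin (0.376, exact permutation p = 0.35), Pcna (0.758, p = 0.0272), Mcm3 (0.782, p = 0.023) and Mcm2 (0.824, p = 0.0125), none of which passed after adjustment over all genes.

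Among 6 Car6-/- tracheas, r was again above 0 for 26 of 26 genes, with a median of 0.934 and a range from 0.592 (Ccne1) to 0.993 (Rrm2, the small subunit of ribonucleotide reductase). With 6 samples an exact permutation p cannot go below 0.00139, and 0 of the 26 genes and 0% of all 9736 genes passed after adjustment, while 731 of all genes had an unadjusted p under 0.05. An r over 0.9 was found in 21 of the 26 genes and in 3.24% of all genes. Without the 2 samples farthest from the median the median r was 0.911 (0.224 to 0.992). For Top2a r was 0.988 and rho 1 (exact permutation p = 0.00139 and 0.00278, adjusted 0.3 and 0.51), and for Birc5 0.983 and 1 (exact permutation p = 0.00139 and 0.00278, adjusted 0.3 and 0.51). Relations with the thymocyte level were computed for 26 genes in 2 groups, 52 in all, after values had been seen.

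**Figure D3:**
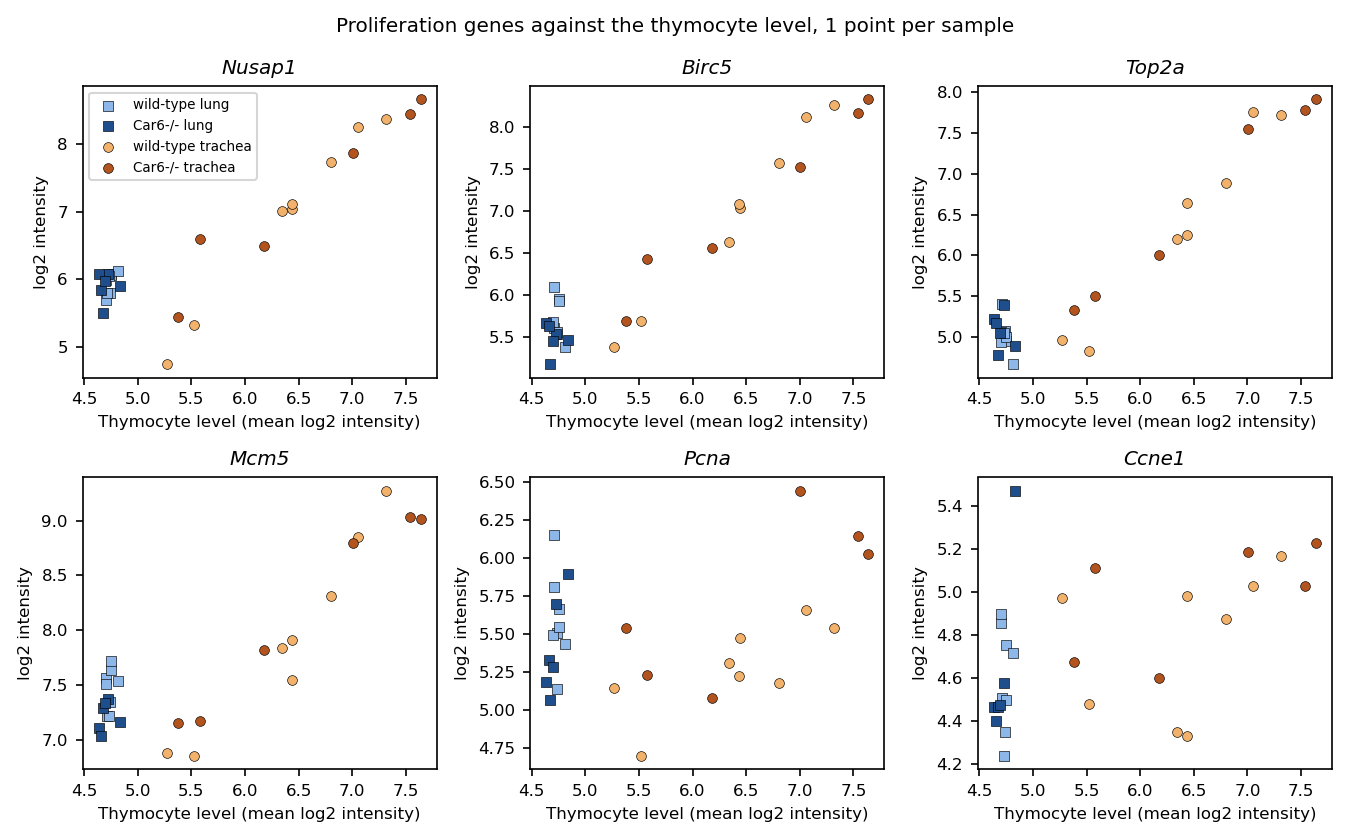
Each point is 1 sample, with the mean log2 level of 7 thymocyte marker genes on the x axis and the log2 intensity of 1 proliferation gene on the y axis, for lung (squares) and trachea (circles) of wild-type (light) and Car6-/- (dark) mice. Nusap1, Birc5, Top2a and Mcm5 climb with the thymocyte level in both trachea groups (r of 0.965 to 0.994 in wild type), Pcna and Ccne1 climb less, and the lungs gather at levels between 4.63 and 4.83.

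The spread of these genes between samples was correspondingly unequal. In lung, the median standard deviation over the 19 genes tested was 0.19 in wild type and 0.20 in Car6-/-, near the 0.17 of all genes in both. In trachea, the median over 26 genes was 0.68 in wild type and 0.84 in Car6-/-, against 0.26 and 0.33 for all genes. Nusap1 had the largest standard deviation in both trachea groups (1.30 and 1.27).

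Without the 5 tracheas whose thymocyte level was above 7 (wild-type 7 and 8, Car6-/- 2, 5 and 7), a setting added after values had been seen, fewer genes were higher in trachea. These tracheas were among those with the highest proliferation gene values, so smaller counts and medians follow from leaving them out and are given as values. In wild type, 8 were then higher and 3 lower, and the median change was 0.32. In Car6-/- mice, 4 were higher and 2 lower, and the median change was 0.28. The shares of all genes given above belong to the full sets of samples, so these counts have no share of their own beside them. Top2a was still higher, by 0.94 ± 0.28 in wild type (adjusted p = 0.00687) and by 0.53 ± 0.18 in Car6-/- mice (adjusted p = 0.0312). Nusap1 was no longer called in either (0.55 ± 0.37 and 0.28 ± 0.24, adjusted p = 0.198 and 0.359), nor was Cdk1 in Car6-/- mice (0.50 ± 0.22, adjusted p = 0.0829).

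Whether proliferation genes differed with the loss of Car6 was tested first in lung. Of 19 genes tested, 0 passed a limma adjusted p under 0.05 in either direction, where 0.0212% of the 9417 genes tested did (2 genes). At an unadjusted limma p under 0.05 there were 4 of 19 (21.1%), where 883 of all genes tested (9.38%) were. The change was below 0 in 16 genes and above 0 in 3, with a median of -0.18, while 51.2% of all genes tested were below 0, with a median of -0.0031. The 6 licensing genes tested were all below 0 (median -0.22).

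Mcm2, a subunit of the replicative helicase, had the smallest p. It ranged from 5.54 to 6.14 (median 5.88) in Car6-/- lung and from 6.07 to 6.40 (median 6.21) in wild-type lung, and the groups overlapped by 1 Car6-/- sample, lung 5. The change was -0.38 ± 0.09 (limma adjusted p = 0.116). Cdc6, which loads that helicase at origins, ranged from 4.63 to 5.17 (median 4.90) in Car6-/- and from 4.90 to 5.32 (median 5.20) in wild-type lung (-0.26 ± 0.09, adjusted p = 0.319). Detection was met by 7 wild-type lungs and by 1 Car6-/- lung, so most Car6-/- values lay at background. Cdc6 thus entered the test through the wild-type lungs, where it was higher, and its p is no support. Mcm5 ranged from 7.04 to 7.37 (median 7.22) in Car6-/- and from 7.21 to 7.72 (median 7.52) in wild-type lung (-0.25 ± 0.09, adjusted p = 0.36). For both genes 3 of the 6 Car6-/- lungs lay below every wild-type lung.

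Mcm4 ranged from 8.79 to 9.16 (median 8.88) in Car6-/- and from 9.00 to 9.26 (median 9.10) in wild-type lung (-0.17 ± 0.07, adjusted p = 0.441). Birc5 ranged from 5.17 to 5.66 (median 5.50) in Car6-/- and from 5.38 to 6.09 (median 5.64) in wild-type lung (-0.23 ± 0.11, adjusted p = 0.538). Mcm6, a further helicase subunit, ranged from 7.24 to 7.80 (median 7.49) in Car6-/- and from 7.52 to 8.00 (median 7.66) in wild-type lung (-0.18 ± 0.09, adjusted p = 0.551). All 3 pairs of groups overlapped. The other detected probes of Mcm6 were at -0.22 ± 0.11 and at -0.0061 ± 0.097, the latter near 0. Top2a changed by 0.07 ± 0.11 (adjusted p = 0.91), with detection in 8 of the 14 lungs, 4 per genotype, and Pcna by -0.18 ± 0.15 (adjusted p = 0.771), detected in all 14 lungs. A second probe of Cdc20 had the opposite sign (0.21 ± 0.13) to the one that stands for the gene (-0.18 ± 0.12).

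The B cell level of the lungs was the mean of 9 B cell genes, of which 7 were detected in lung. It was 5.89, 5.93 and 6.22 in Car6-/- lungs 1, 2 and 6, below every wild-type lung (6.29 to 6.61). The other Car6-/- lungs had 6.40 to 6.54. The part of this level in the lung values was not tested. Without Car6-/- lungs 1, 2 and 6 the median change of the proliferation genes was -0.15 and that of Mcm2 was -0.31 ± 0.10 (adjusted p = 0.805). Without background correction the median was -0.068.

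In trachea, 0 of 26 genes passed the limma test between genotypes, where 0% of the 9736 genes tested did, and 1 of the 26 had an unadjusted p under 0.05 (1673 of all genes). The change was above 0 in 24 genes and below 0 in 2, with a median of 0.17, against 56.1% above 0 and a median of 0.04 for all genes tested. Another probe of Mcm6, Rrm2 and Cdc20 each had the opposite sign (-0.04 ± 0.32, -0.08 ± 0.33 and -0.06 ± 0.24) to the one that stands for the gene (0.01, 0.22 and 0.35). The remaining tested probes of these genes were above 0. Marker lists of other cell types differed more in the same comparison, with 0 of their genes called: the median was -2.61 over 7 thyroid genes, -1.66 over 8 skeletal muscle genes, -1.34 over 7 basal epithelium genes, -0.89 over 7 cartilage genes, 1.04 over 5 adipocyte genes and 1.63 over 4 B cell genes. Their part in the values of the proliferation genes was not tested. Pcna ranged from 5.08 to 6.44 (median 5.78) in Car6-/- trachea and from 4.70 to 5.65 (median 5.26) in wild-type trachea. The 3 highest values, in Car6-/- tracheas 2, 5 and 7, lay above every wild-type trachea, and these are also the 3 Car6-/- tracheas of highest thymocyte level. The change was 0.47 ± 0.21 (adjusted p = 0.281). Mcm4 ranged from 8.21 to 9.58 (median 9.14) in Car6-/- and from 8.02 to 9.25 (median 8.67) in wild-type trachea (0.35 ± 0.25, adjusted p = 0.481), with the same 3 Car6-/- tracheas above every wild-type trachea.

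Ccne1 ranged from 4.60 to 5.23 (median 5.07) in Car6-/- and from 4.33 to 5.17 (median 4.92) in wild-type trachea (0.20 ± 0.16, adjusted p = 0.538), and was detected in 7 of the 14 tracheas. Cenpa ranged from 8.02 to 10.26 (median 9.75) in Car6-/- and from 7.48 to 10.24 (median 8.93) in wild-type trachea (0.49 ± 0.47, adjusted p = 0.594). Cdca8 ranged from 4.65 to 6.99 (median 5.88) in Car6-/- and from 4.38 to 6.28 (median 5.82) in wild-type trachea (0.37 ± 0.39, adjusted p = 0.64). Groups overlapped for all 3 genes. Tpx2, the targeting factor of Aurora A, ranged from 4.38 to 5.87 (median 5.07) in Car6-/- and from 4.35 to 5.67 (median 4.89) in wild-type trachea (0.22 ± 0.29, adjusted p = 0.72). Top2a changed by 0.28 ± 0.56 (adjusted p = 0.822), with values of 6.00, 7.55, 5.50, 7.79, 5.33 and 7.91 in Car6-/- tracheas 1, 2, 4, 5, 6 and 7 and of 4.97, 6.20, 6.88, 6.64, 4.83, 6.25, 7.75 and 7.72 in wild-type tracheas 1 to 8.

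With the thymocyte level as a covariate, a model added after values had been seen, the median change of the 26 genes was 0.05, 16 were above 0 and 10 below, and again 0 were called. Pcna was then at 0.41 ± 0.15 (adjusted p = 0.195), Mcm4 at 0.26 ± 0.12 (adjusted p = 0.259) and Top2a at 0.07 ± 0.14. The standard error of Top2a was 0.56 without the covariate. A smaller error had to follow, because these genes already rose with this level in the same tracheas, and it is given as a value only. The sign of the median depended on the samples: it was -0.28 without the 5 tracheas of thymocyte level above 7, which takes out the 3 highest Car6-/- values of genes such as Pcna and Mcm4, and 0.48 without Car6-/- tracheas 1, 2 and 6.

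**Figure D4:**
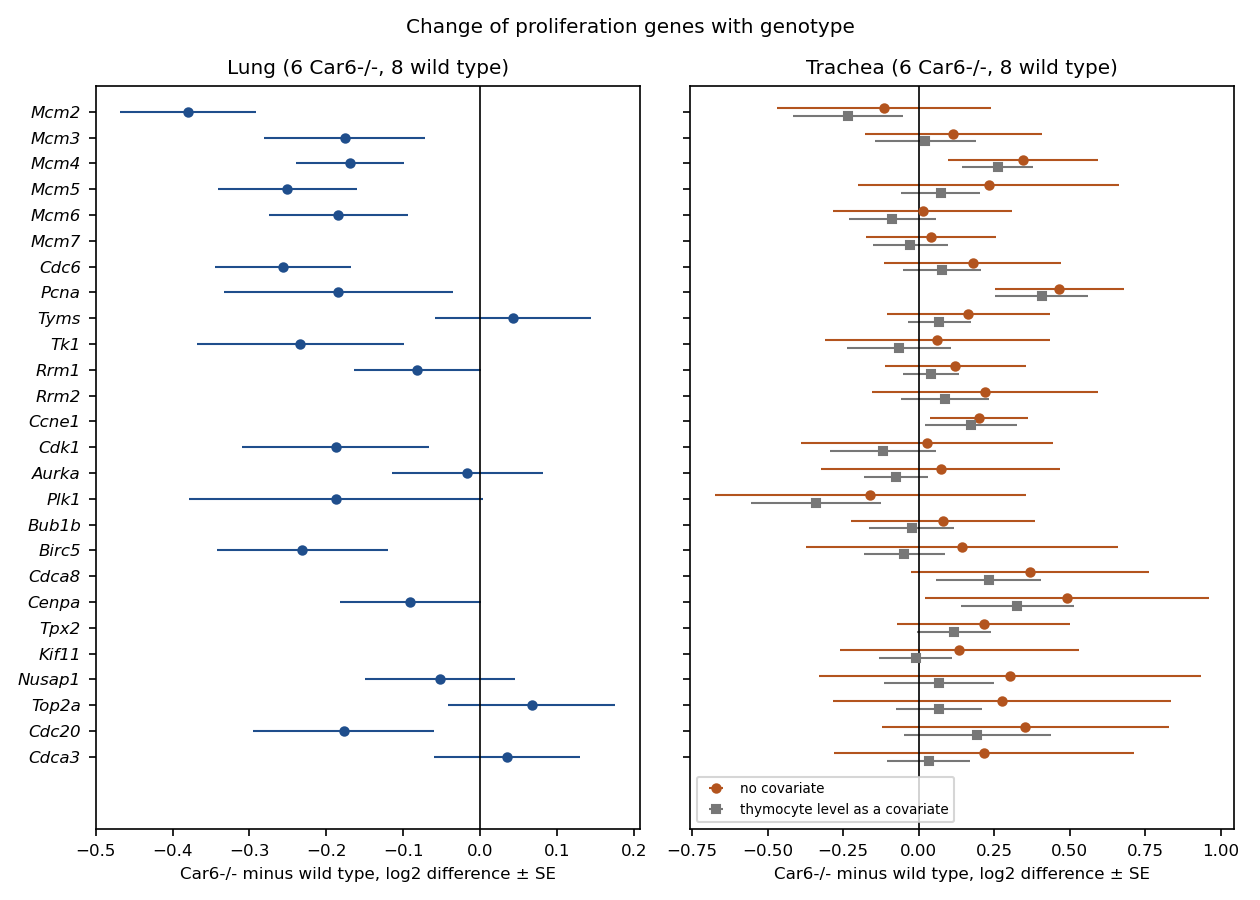
Points show the log2 difference of Car6-/- minus wild type, with standard error, for each proliferation gene tested in lung (left) and trachea (right, without and with the thymocyte level as a covariate). None passed a limma adjusted p under 0.05. In lung 16 of 19 lie left of 0, Mcm2 furthest at -0.38. The smaller standard errors with the covariate in trachea (for Top2a 0.14 in place of 0.56) follow from its correlation with these genes in the same samples.

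A single model of the 28 samples then set the genotype difference in trachea against that in lung. Of 26 genes tested, 0 passed, where 0% of the 10532 genes tested did, and 1 had an unadjusted p under 0.05 (1446 of all genes). The difference, trachea minus lung, was above 0 in 26 of 26 genes with a median of 0.24, against 56.3% and a median of 0.04 for all genes. Another probe of Cdc20 had the opposite sign (-0.05 ± 0.27), and its remaining tested probes were above 0. It was 0.65 ± 0.27 for Pcna (adjusted p = 0.279), 0.51 ± 0.26 for Mcm4 (adjusted p = 0.38) and 0.44 ± 0.31 for Cdc6 (adjusted p = 0.541). Pcna was thus at -0.18 in lung and at 0.47 in trachea, and the difference between these was not past the threshold. The median was -0.20 without those 5 tracheas, for which the same holds.

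Other genes of these pathways, which are no members of the set, were described in the same way. In lung, 0 of 21 replication genes tested were called, 15 below 0, with the smallest p for Cdt1, the partner of Cdc6 in licensing (-0.30 ± 0.11, adjusted p = 0.359), Timeless, a fork protection factor (0.22 ± 0.08, adjusted p = 0.367), and Fen1, the flap endonuclease (-0.23 ± 0.09, adjusted p = 0.405). Of 15 mitosis genes 0 were called and 11 were below 0, with the smallest p for Spc24, a kinetochore subunit (-0.22 ± 0.08, adjusted p = 0.391), Incenp, the passenger complex scaffold (-0.22 ± 0.10, adjusted p = 0.474), and Ncapd2, a condensin subunit (-0.21 ± 0.09, adjusted p = 0.476). Of 24 cell cycle entry and inhibitor genes 0 were called and 16 were above 0.

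Among the latter, Cdkn1a, the p21 inhibitor of cyclin-dependent kinases, had the smallest p in lung. Its log2 intensity was 10.53, 10.36, 9.97, 10.36, 9.80 and 8.88 in Car6-/- lungs 1, 2, 4, 5, 6 and 7 and 8.47 to 9.29 in wild-type lungs. So 5 of the 6 Car6-/- lungs lay above every wild-type lung and lung 7 lay within their range. The change was 1.06 ± 0.21 (limma adjusted p = 0.0776). Ccnd3, a D-type cyclin, and E2f2, an E2F factor, followed (0.28 ± 0.08 and 0.22 ± 0.10, adjusted p = 0.24 and 0.495).

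In trachea, 0 of 25 replication genes, 0 of 29 mitosis genes and 0 of 25 entry and inhibitor genes were called between genotypes, and 20, 27 and 17 of them were above 0. The smallest p among the replication genes were those of Orc6, an origin recognition subunit (0.33 ± 0.16, adjusted p = 0.306), Dck, deoxycytidine kinase (0.35 ± 0.20, adjusted p = 0.388), and Prim2, a primase subunit (0.21 ± 0.14, adjusted p = 0.465). Among the mitosis genes they were those of Anln, anillin of the cleavage furrow (0.55 ± 0.24, adjusted p = 0.266), Kif23, a central spindle kinesin (0.47 ± 0.34, adjusted p = 0.485), and Spc24 (0.23 ± 0.20, adjusted p = 0.559). Among the entry and inhibitor genes they were those of Cdkn2c, the p18 inhibitor (0.54 ± 0.15, adjusted p = 0.151), Ccng1, cyclin G1 (-0.43 ± 0.17, adjusted p = 0.22), and E2f6, a repressive E2F factor (-0.41 ± 0.17, adjusted p = 0.247). Between tissues, where 29.8% of all genes were higher and 38.5% lower in wild-type trachea and 20.4% and 28.1% in Car6-/- trachea, 10 of 21 mitosis genes were higher in wild-type trachea and 2 lower, and 12 of 19 were higher in Car6-/- trachea and 0 lower. Of 21 replication genes, 5 were higher and 3 lower in wild type, and 3 were higher and 1 lower in Car6-/- mice, with the higher genes below the share of all genes.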

How the data were processed

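The deposited table of non-normalized values gave, per the file headers, a signal intensity per probe and array and a detection p-value beside it, with no scanner steps stated. The series matrix held log2 values that the authors had made, and 100% of them lay within 0.0051 of log2 of the same intensities after quantile normalization within each tissue. The 32 arrays measured 28 samples, and the 4 second arrays were averaged with the first. The array number limits the precision, and array median signals ranged from 92.4 to 118.3.

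Intensities were background-corrected by normexp with the detection p-values (offset 16), quantile-normalized over all arrays and put on the log2 scale with limma 3.58.1 in R 4.3.3. Probes with a detection p under 0.01 in at least 6 of the compared samples were kept, and the probe with the highest mean stood for a gene. Of the probes, 23978 had 1 gene symbol and 1719 had none. Each comparison was fitted with lmFit and eBayes on its own samples, and the genotype difference between tissues on all samples. Adjusted p-values are Benjamini-Hochberg over all genes tested, with a threshold of 0.05. A gene detected in no sample of a group is given as at least so many fold. Relations with the thymocyte level used exact two-sided permutation tests (Python 3.11.15, scipy 1.17.1), adjusted over all genes. Figures were drawn with matplotlib 3.10.9. The procedure was tested on simulated data.

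The proliferation genes and all gene lists were chosen with earlier results of these data known. Described in full were the 6 genes with the smallest p in each genotype comparison, 3 in the difference between tissues, the 5 called genes of largest change in each direction between tissues, up to 3 genes per pathway list, and Top2a and Pcna. Alternatives covered the background correction, the normalization, the authors' log2 values, the detection filter, the second arrays, the probe choice, the variance model, a replicate block, and leaving out single samples or samples that stood apart. Lung and trachea of the same number did not deviate together, so the numbers were not treated as pairs. Their correlations ran from -0.11 to 0.09 in Car6-/- mice and from -0.15 to 0.09 in wild type. Between genotypes, same-numbered samples of a tissue had correlations from -0.28 to 0.54.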

Additional observations from a re-analysis of the deposited data

Results flagged for a closer look

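In 2 of the 60 sets of values tested (a named gene in a group), 1 sample lay far from the others, and chance gives about 1 in 20. Both were in Car6-/- lung 4, and both genes lie near background in lung. Ccne1 was 5.47 there, where the next highest Car6-/- lung was 4.58 and the lowest 4.40. Tpx2 was 4.61 there, where the next highest was 4.40 and the lowest 4.30. Ccne1 was detected in that group in 1 lung, and Tpx2 in 0.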

How the results depend on the processing

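Between genotypes, 0 proliferation genes were called in lung, trachea or the difference between tissues under every alternative run. Their median change in lung, -0.18, was -0.068 without background correction, -0.069 in the authors' log2 values and -0.083 without the detection filter. Leaving out 1 sample moved the count of all genes called from 2 to between 0 and 44 in lung (44 without Car6-/- lung 7), from 0 to at most 693 in trachea (693 without Car6-/- trachea 4) and from 0 to at most 672 in the difference between tissues (672 without Car6-/- trachea 4, 218 without Car6-/- trachea 5). The cause was not tested. Cdca8 in trachea reversed to -0.049 without the tracheas of thymocyte level above 7.

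Between tissues in wild type, the 13 higher genes became 6 when detection in every sample of a group was required, which tests fewer genes, and 8 without the tracheas of thymocyte level above 7, which hold high values of these genes. The 1 lower gene became 2 under median scaling, 3 without those tracheas, and between 1 and 3 without single samples, while the higher genes then numbered between 9 and 17. Median scaling moved the median of all genes from -0.09 to -0.16 in wild type and from -0.07 to -0.19 in Car6-/- mice. In Car6-/- mice, 4 higher and 2 lower genes were left without those tracheas, with a median of 0.28, and between 8 and 15 higher without single samples. The shares of all genes given above belong to the main setting, so the counts under these alternatives have none of their own beside them. Nusap1 lost its call between tissues in wild type under median scaling (adjusted p = 0.0531) and with the trend and robust variance (0.0605), and in Car6-/- mice without the detection filter (0.0588).

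With a replicate block, 0 genes were called in lung and trachea, 13 higher and 1 lower in wild-type trachea against lung, and 13 higher and 0 lower in Car6-/- mice. No share of all genes under the block is set beside these counts. Low signal limits the lung values, where 8 of the 32 genes were never detected.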

Other observations

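Of 25 cell cycle entry and inhibitor genes tested between tissues, 7 were higher and 9 lower in wild-type trachea, where 29.8% and 38.5% of all genes were. In Car6-/- trachea 5 were higher and 4 lower, where 20.4% and 28.1% of all genes were. In wild type, Cdkn2b, the p15 inhibitor of cyclin D kinases, was lower in trachea by a log2 change of -2.39 ± 0.09 (limma adjusted p = 1.53e-13), and Ccnd1, cyclin D1, by -1.18 ± 0.13 (adjusted p = 1.65e-07). Uhrf1, which maintains DNA methylation at the replication fork, was higher in trachea in both genotypes (1.53 ± 0.35, adjusted p = 0.00081, in wild type, and 1.85 ± 0.49, adjusted p = 0.00694, in Car6-/- mice). These genes were picked from their lists after their values were seen.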
